A study of Homo sapiens with 54 samples.

Results

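*A2M* was followed as a single gene, 1 row in each of 4 TPM tables that together hold 54 RNA-seq libraries, 18 conditions and 3 libraries per condition. It was chosen by its measured values, because it was lower after *TRA2A* knockout in both glioma lines of the study, LN229 and LN319. *A2M* encodes alpha-2-macroglobulin, a large secreted glycoprotein that takes up proteases of many kinds through a bait region and a reactive thioester, and that also carries growth factors and cytokines. Complexes of the protein with a protease are cleared through the receptor LRP1. The liver makes most of the plasma protein, and astrocytes and glioma cells can make it too; in the rat it is a classical acute-phase gene that answers to IL-6 and STAT3. *TRA2A* and *TRA2B* are paralogous splicing activators that recognise purine-rich, GAA-containing words in exons.

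LN229 and LN319 are human glioma lines, and A549 and NCI-H23 are human lung adenocarcinoma lines. In each glioma line the 5 conditions were Luc Control KO, Luc TRA2A KO, Luc TRA2B KO, TRA2B-OE Control KO and TRA2B-OE TRA2A KO. KO is a knockout with lentiviral Cas9 and a guide, Luc is a luciferase cDNA and TRA2B-OE an overexpressed *TRA2B* cDNA, so every glioma library carried a cDNA and Cas9 with a guide, the controls included. In the lung lines the 4 conditions were Control KD, TRA2A/B DKD and the single knockdowns TRA2A KD and TRA2B KD, by CRISPR interference with a Zim3-dCas9 repressor. No source says that the 3 libraries of a condition came from separate cultures, so p-values measure the spread between these libraries, which may be technical.

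TPM keeps no read depth, so the precision that depth gave to any value is unknown. Among 12 glial markers, 10 reached 1 TPM in at least 4 libraries of LN229 and 8 did so in LN319; *AQP4* and *ALDH1L1* in LN229, and *OLIG2*, *FABP7* and *ALDH1L1* in LN319, stayed under 1 TPM in every library. LN319 also expressed *CDH1*, an epithelial cadherin, at 116 to 150 TPM. In bulk RNA, fewer cells that express *A2M* and less *A2M* RNA per cell cannot be told apart. In LN229, Luc Control KO replicate 1 stood apart from the other controls in *A2M* and in several secreted-protein genes, so results that rest on it are given with and without it.

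*A2M* lies on the minus strand of chromosome 12 at 9067664 to 9116229 in GRCh38, and its reference transcript has 36 exons and 4610 bases. The knockout guides listed by the study are shown because a guide with a near match in *A2M* could cut the gene itself. The 3 *TRA2A* guides, 20 bases each, matched coding exon 4 of *TRA2A* with 0 mismatches, on the minus strand of chromosome 7:
TRA2A sg4 (23513023 to 23513042): tcagtttgtacacaacagag
TRA2A sg5 (23512982 to 23513001): tctcgatatggaccattgag
TRA2A sg6 (23512951 to 23512970): tggtttatgatcagcgaact
The closest places to them that sit before an NGG in *A2M*, or within 5 kb of it, are given next, with the bases that differ from the guide in capitals:
sg4, 8 mismatches, in exon 14: tcTCtttgtGcCcCaGTgaA
sg5, 6 mismatches, in exon 2: tctcAGtGtggaGcaGGgag
sg6, 6 mismatches, in an intron: AgTtttatCTtcagAgaaTt
For the 3 *TRA2B* guides the fewest mismatches in the same window were 7 for sg2, 8 for sg4 and 6 for sg5, and for the control guides 5 for AAVS1 sg1 and 7 for ROSA26 sg1. No *TRA2A* or *TRA2B* knockout guide thus came closer to *A2M* than 6 mismatches. Which of the listed guides made each library is not given in the sources used here.

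The *A2M* transcript holds GAAGAA 9 times and AGAAGA 7 times. These are 2 overlapping forms of the purine-rich word known for TRA2 binding, counted on the transcript strand. Together this is 3.47 starts per kb, against a median of 1.38 over the reference transcripts of 20020 protein-coding genes, of which 88.8% are at or below *A2M* and 87.3% hold either word at least once. The words lie in 8 of the 36 coding exons, and 2 of the exons that carry the most per base are shown from first to last coding base, with the words in capitals:
*A2M* exon 7 (chromosome 12, 9109321 to 9109405, minus strand): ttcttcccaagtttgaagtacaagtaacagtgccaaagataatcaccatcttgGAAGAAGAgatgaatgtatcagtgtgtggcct
*A2M* exon 23 (chromosome 12, 9080094 to 9080177, minus strand): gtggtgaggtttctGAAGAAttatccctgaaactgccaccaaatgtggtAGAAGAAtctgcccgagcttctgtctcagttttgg
A word is not a binding site, and neither binding nor the splicing of these exons was measured in the tables, which give 1 value per gene. The study also analysed splicing in LN229 and LN319 with MAJIQ, and those results were not used here.

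The targeted genes were read first, as a check of the labels. In LN319, *TRA2A* was 101, 107 and 113 TPM in Luc Control KO and 33.9, 34.3 and 38.3 TPM in Luc TRA2A KO, that is 33.2% of the control. In LN229 it was 105, 111 and 111 TPM in Luc Control KO and 74.2, 67.1 and 65.0 TPM in Luc TRA2A KO, or 62.9%. The mRNA was thus lower in the knockout of both lines, with no overlap, and less so in LN229. In LN229 with TRA2B-OE, the *TRA2A* mRNA was 65.4 to 75.6 TPM after *TRA2A* knockout and 74.8 to 84.3 TPM in the control, so these groups overlapped and the mRNA alone does not check that label. In LN319 with TRA2B-OE, *TRA2A* was 52.8% of its control.

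*TRA2B* was 66.0% of the Luc control in the Luc TRA2B KO of LN229 and 35.1% in that of LN319. With the *TRA2B* cDNA, which the *TRA2B* value includes, it reached 703 to 900 TPM in LN229 TRA2B-OE Control KO and 678 to 840 TPM in LN319 TRA2B-OE Control KO. The knockout of one paralog also came with a higher value of the other in part of the comparisons. In LN229 Luc TRA2B KO *TRA2A* was 155% of the control, whereas in LN319 Luc TRA2B KO it was 84.6%. Mutated transcripts from knocked-out alleles still count toward TPM, and protein was not measured in the tables.

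**Figure D1:**
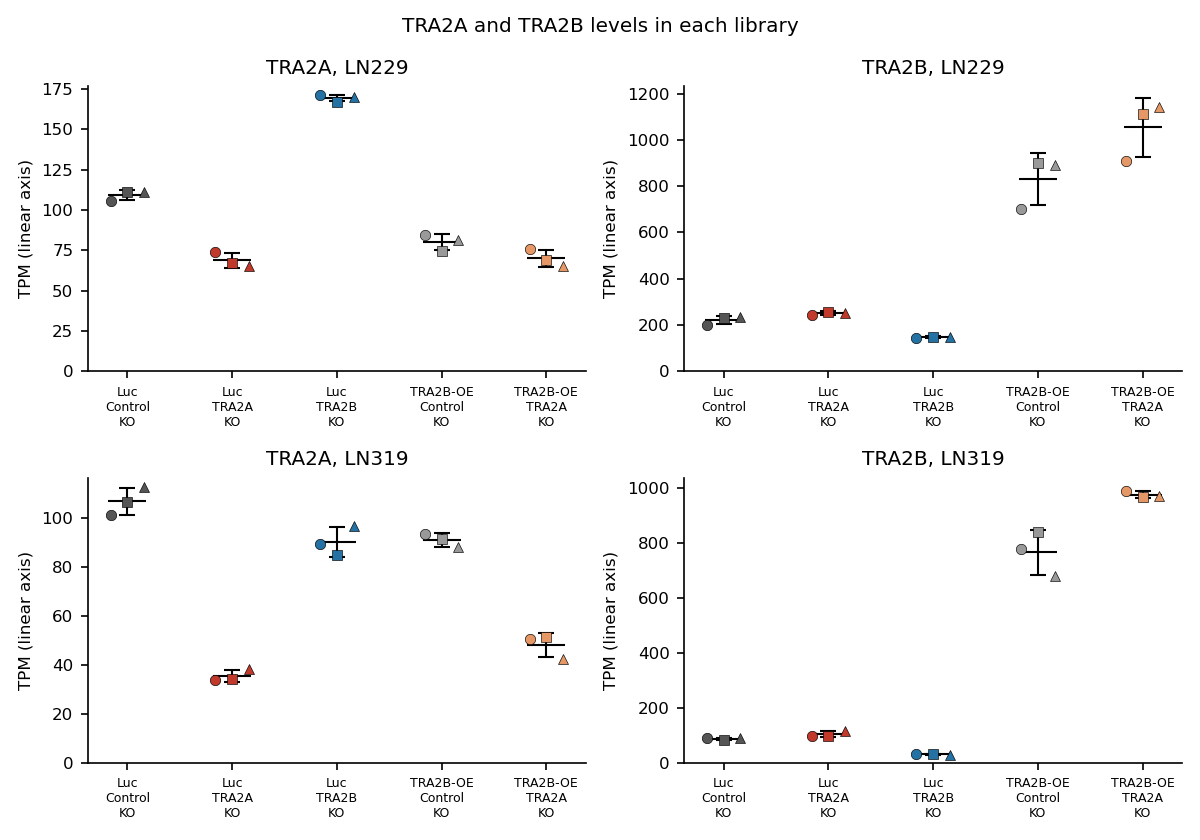
*TRA2A* (left) and *TRA2B* (right) in TPM on linear axes from 0, for LN229 (top) and LN319 (bottom); circles, squares and triangles are replicates 1, 2 and 3, and the bar is the mean with its SD. *TRA2A* was at 33.2% of the Luc control in LN319 Luc TRA2A KO and at 62.9% in LN229, and the LN229 TRA2B-OE groups overlapped in *TRA2A*.

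The comparison that chose *A2M* is given as a description, with no test. In LN229, *A2M* was 175, 85.3 and 77.9 TPM in Luc Control KO and 32.2, 34.4 and 26.8 TPM in Luc TRA2A KO. The highest knockout library was below the lowest control library, although the control itself ranged widely because of replicate 1. The means were 113 ± 54.1 and 31.1 ± 3.92 TPM (SD, n = 3), so the knockout stood at 27.6% of the control. Without control replicate 1 it stood at 38.1%.

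In LN319, *A2M* was 31.2, 34.2 and 24.8 TPM in Luc Control KO and 6.82, 5.82 and 6.05 TPM in Luc TRA2A KO. The 2 groups were far apart and each was tight, with means of 30.1 ± 4.81 and 6.23 ± 0.525 TPM. The knockout stood at 20.7% of the control. On the log2 scale of scaled TPM plus 0.1, the difference was −1.75 (SE 0.263) in LN229 and −2.20 (SE 0.184) in LN319. In these comparisons 0.687% of 18490 genes passed an adjusted p of 0.05 and a log2 difference of more than 1 in LN229, and 1.86% of 19303 genes did so in LN319; nothing is read from *A2M* against these shares, since the contrast chose it.

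**Figure D2:**
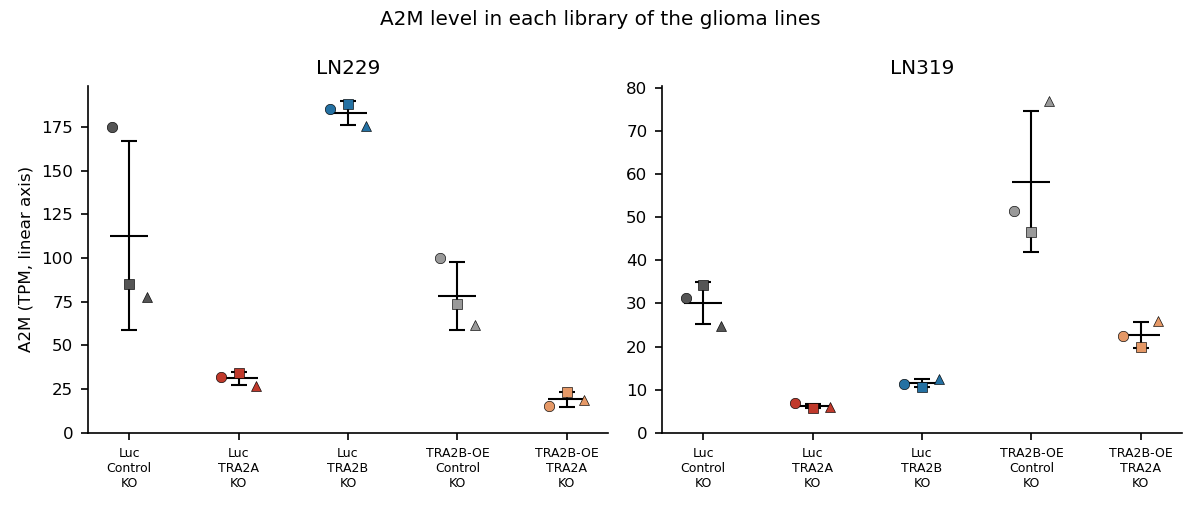
*A2M* in TPM on linear axes from 0, with a separate scale for each line; circles, squares and triangles are replicates 1, 2 and 3, and the bar is the mean with its SD. Luc TRA2A KO and TRA2B-OE TRA2A KO lie below their own controls in both lines, while Luc TRA2B KO lies at 176 to 188 TPM in LN229, level with the highest of its controls, and at 10.6 to 12.6 TPM in LN319, below them.

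The same knockout was also made in cells that overexpressed *TRA2B*, with control and knockout libraries that are separate from those above. In LN229 TRA2B-OE Control KO, *A2M* was 99.8, 73.8 and 61.8 TPM, and in TRA2B-OE TRA2A KO it was 15.2, 23.5 and 18.7 TPM. All 3 knockout libraries were below all 3 controls, and the group means were 78.5 ± 19.4 and 19.1 ± 4.20 TPM, or 24.4% of the control. *A2M* fell by 2.05 on the log2 scale (95% interval −2.62 to −1.48, limma adjusted p = 0.00161).

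In LN319 TRA2B-OE Control KO, *A2M* was 51.5, 46.5 and 76.9 TPM, and in TRA2B-OE TRA2A KO it was 22.5, 19.9 and 25.9 TPM. Again no knockout library reached the lowest control, and the means were 58.3 ± 16.3 and 22.8 ± 3.05 TPM, or 39.0% of the control. *A2M* fell by 1.27 on the log2 scale (95% interval −1.66 to −0.87, adjusted p = 0.00763), but with a fit of these 2 groups alone the adjusted p was 0.127. An exact two-sided permutation test of *A2M* alone gave 0.1 in each line, the smallest p that 3 against 3 allows. The rule that chose *A2M* does not name Luc or TRA2B-OE, and if the overexpressing libraries were in view when it was made, these tests are not independent of it.

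The calls of *A2M* stood beside 1.1% of genes called in LN229 and 0.233% of genes called in LN319 in these comparisons. Among all tested genes, *A2M* had the 131st most negative log2 difference of 18490 in LN229 and the 243rd of 19303 in LN319. Among genes with a mean of at least 10 TPM, it had the 17th of 9940 in LN229 and the 3rd of 10254 in LN319. It was therefore among the most reduced genes of that abundance in both lines.

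**Figure D3:**
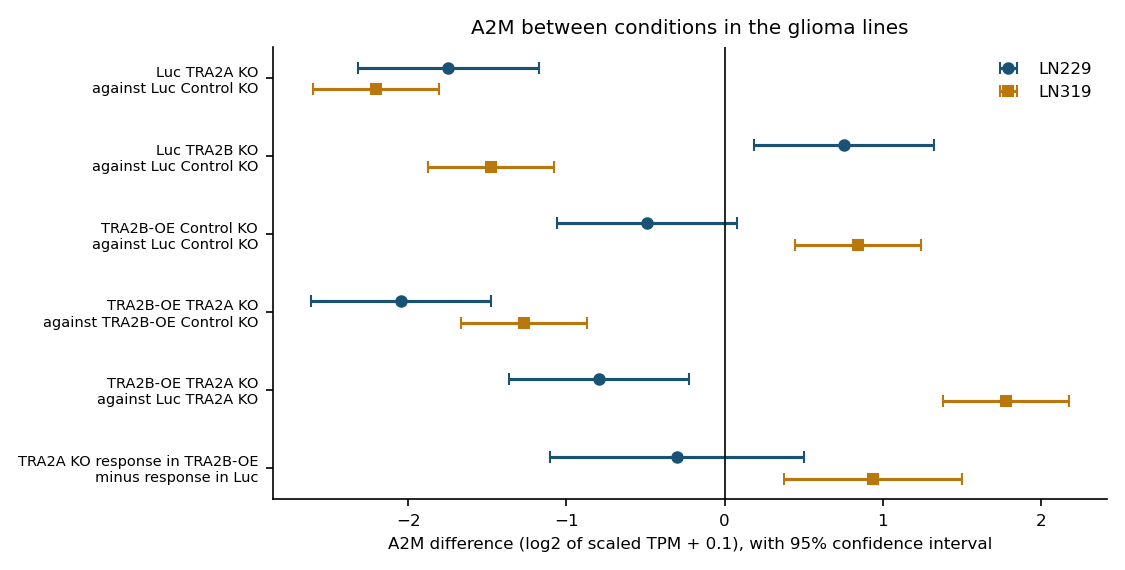
Differences of *A2M* on the log2 scale of scaled TPM plus 0.1, with 95% confidence intervals, for each comparison in LN229 (circles) and LN319 (squares); the intervals of comparisons that include Luc TRA2A KO are a description, since that contrast chose the gene. The TRA2B-OE TRA2A KO difference was −2.05 in LN229 and −1.27 in LN319, and the Luc TRA2B KO difference was 0.75 in LN229 and −1.48 in LN319.

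The responses in TRA2B-OE and in Luc are set side by side as a description, since *A2M* was chosen for a low value in the Luc knockout, which can enlarge that response. In LN229 the response in TRA2B-OE minus that in Luc was −0.30 on the log2 scale, and −0.68 without Luc Control KO replicate 1. In LN319 it was 0.94, with the knockout at 39.0% of its control in TRA2B-OE and 20.7% in Luc. Directly between the knockouts, *A2M* in LN319 was 22.8 TPM in TRA2B-OE TRA2A KO against 6.23 TPM in Luc TRA2A KO, or 365%. In LN229 the corresponding means were 19.1 and 31.1 TPM, or 61.5%.

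Overexpression alone was compared in the controls, which share the Luc Control KO libraries with the contrast that chose *A2M*. In LN319, all 3 TRA2B-OE Control KO libraries were above all 3 Luc Control KO libraries, at 194% in the mean. *A2M* rose by 0.84 on the log2 scale (95% interval 0.45 to 1.24, adjusted p = 0.0276), which is under the log2 difference of 1 asked of a call, and 0.694% of genes were called. This rise lost its adjusted p of 0.05 without Luc Control KO replicate 1 (0.07) or 3 (0.0947), without TRA2B-OE Control KO replicate 1 (0.0667), and when only the 2 groups were fitted (0.154). In LN229 the 2 groups overlapped, the mean was 69.6% of Luc Control KO, and the log2 difference was −0.49 (95% interval −1.06 to 0.08, adjusted p = 0.431), where 0.297% of genes were called. Without Luc Control KO replicate 1, that LN229 difference was −0.14 (adjusted p = 0.791) and the mean was 96.1% of the control.

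Knockout of *TRA2B* was tested in the Luc background, again against the shared Luc controls. Choosing *A2M* for a fall from these controls favours high values in them, which can enlarge other falls from them. The p-values and ranks against these controls are therefore not independent of the choice. In LN319 Luc TRA2B KO, *A2M* was 11.4, 10.6 and 12.6 TPM, all below the controls at 24.8 to 34.2 TPM. It stood at 38.3% of the control and fell by 1.48 on the log2 scale (95% interval −1.87 to −1.08, adjusted p = 8.77e-05), in a comparison in which 3.92% of genes were called. It had the 9th most negative difference of the 10254 genes with a mean of at least 10 TPM, and the 176th of all 19303 tested. The mitochondrial share of TPM was 18.3 to 20.6% in these libraries and 12.1 to 12.8% in their controls, and its part in the result was not tested.

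In LN229 Luc TRA2B KO, *A2M* was 185, 188 and 176 TPM, against 77.9 to 175 TPM in the controls. In TPM as deposited the lowest knockout library was just above control replicate 1, but on the scaled values of the fit it was below it (169 against 178), so these groups overlapped; all 3 knockout libraries were well above the other controls on both scales. The mean was 162% of the control, and the log2 difference of 0.75 did not pass the test (95% interval 0.18 to 1.32, adjusted p = 0.131), in a comparison in which 0.135% of genes were called. Without control replicate 1 the mean was 224% of the control, the log2 difference was 1.11 and the adjusted p was 0.00489. The library decides this call, and without it the number of genes called in the comparison went from 25 to 695.

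The difference between LN229 and LN319 in this comparison, in opposite directions, was not tested. In level, the glioma conditions ran from LN229 Luc TRA2B KO at 183 TPM down to LN319 Luc TRA2A KO at 6.23 TPM. Neighbours in this order that overlapped in their libraries were LN229 Luc Control KO, LN229 TRA2B-OE Control KO and LN319 TRA2B-OE Control KO, and then the run of LN229 Luc TRA2A KO, LN319 Luc Control KO, LN319 TRA2B-OE TRA2A KO and LN229 TRA2B-OE TRA2A KO, which lay between 15.2 and 34.4 TPM. The lines were processed in separate tables, so this order is a description of TPM as deposited.

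In the lung lines *A2M* was close to nothing. It was listed at 0 TPM in 11 of 12 A549 libraries and at 0.161 TPM in the other, a TRA2A/B DKD library. In NCI-H23 it was at most 0.198 TPM, and 3 of 12 libraries were listed at 0. It did not pass the filter of 1 TPM in 4 libraries in either line, so the knockdowns were not compared in the filtered fit. With no filter on low values, the adjusted p of *A2M* in the 6 knockdown comparisons was 0.386 in A549 TRA2A/B DKD, 0.6 in NCI-H23 TRA2A/B DKD and 1 in each of the others. The knockdowns themselves were deep, with *TRA2A* at 9.56% of the control in A549 TRA2A KD and 6.54% in NCI-H23 TRA2A KD.

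In the *TRA2* knockout comparisons of the glioma lines, no alpha-macroglobulin gene other than *A2M* was called. This family shares the thioester fold and comprises protease inhibitors, the membrane protein CD109 and the complement components; of its 9 members 6 were tested in each glioma line. In both TRA2B-OE TRA2A KO comparisons and in LN319 Luc TRA2B KO the only member called was *A2M* itself. Of all genes, 1.1% were called after TRA2B-OE TRA2A KO in LN229 and 0.233% in LN319. After Luc TRA2B KO, 0.135% were called in LN229 and 3.92% in LN319. With so few members tested, the lack of other calls is near these shares and is not a result about the family. The median log2 difference of the 6 was −0.15 in LN229 and −0.13 in LN319 after TRA2B-OE TRA2A KO, against 0.01 and 0.02 over all genes. *A2M*, chosen for its fall, is among these 6, so the medians do not describe the other members alone.

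*CD109*, a membrane-anchored member and co-receptor of TGF-beta, fell by 0.32 in LN229 TRA2B-OE TRA2A KO (109 against 133 TPM, adjusted p = 0.0437) and differed by 0.05 in LN319 (adjusted p = 0.776). *C3*, the central complement component, rose by 0.61 in LN319 Luc TRA2B KO (3.02 against 1.81 TPM, adjusted p = 0.0394), opposite in sign to *A2M*. *C5* gave −0.09 in LN229 and −0.25 in LN319 after TRA2B-OE TRA2A KO, with adjusted p of 0.817 and 0.488. *C4A* and *C4B* are near-identical and may exchange reads, and neither passed the test in those comparisons. *PZP*, *A2ML1* and *CPAMD8* were under the filter in both glioma lines. In A549, where *A2M* was too low to test, *C5* was called lower in TRA2A/B DKD, at 9.29 against 18.1 TPM (adjusted p = 0.00324), in a comparison in which 12.8% of genes were called.

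Genes near *A2M* on chromosome 12 were read to see whether the region moved. Of 14 listed neighbours, 5 were tested in LN229 and 8 in LN319. None was called, nor passed an adjusted p of 0.05, after TRA2B-OE TRA2A KO in either line. Of all genes, 1.1% were called in LN229 and 0.233% in LN319. The lack of calls among so few genes therefore says little about the region. *M6PR*, a mannose 6-phosphate receptor gene 117903 bases away, gave log2 differences of 0.03 in LN229, where it was at 192 TPM in the control, and −0.02 in LN319. *PHC1*, a Polycomb gene, gave −0.33 and −0.22 with adjusted p of 0.107 and 0.0749. *RIMKLB* gave 0.07 and 0.27, and *CLEC2D*, a lectin gene, gave −0.09 and −0.47, none of which passed the test. In the contrast that chose *A2M*, given as a description, 1 of the 8 neighbours was called in LN319 Luc TRA2A KO (1.86% of genes), *CD69*, a lectin gene 636257 bases away, at 3.56 against 9.45 TPM. There *PHC1* was at 77.6% of the control, *MFAP5* at 138% and *RIMKLB* at 143%.

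In LN319 Luc TRA2B KO, 3 of the 8 tested neighbours passed an adjusted p of 0.05 upward and 3 downward, and none was called. At that threshold alone 18.5% of all genes passed upward and 24.2% downward, and 3.92% of all genes were called. *MFAP5*, a microfibril gene at 766 TPM in the control, fell by 0.93. *CD69* fell by 0.77 (adjusted p = 0.000662) and *M6PR* by 0.24, while *CLEC2D* rose by 0.57, *PHC1* by 0.44 and *RIMKLB* by 0.42. *KLRG1*, the remaining tested gene in both lines, did not pass the test in these comparisons. The antisense gene *A2M-AS1* overlaps the 3′ end of *A2M* by 1026 bases, and it, the paralog *PZP* and the pseudogene *A2MP1* all stayed under 1 TPM in every glioma library. Whether the authors' quantification used strand is not given in the sources used here.

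The gene of the receptor that clears the protein, *LRP1*, gave smaller differences than *A2M*. *LRP1* was 35.2, 30.4 and 26.1 TPM in LN229 TRA2B-OE Control KO and 21.7, 24.1 and 21.3 TPM in TRA2B-OE TRA2A KO, with a log2 difference of −0.46 (adjusted p = 0.0549). In LN319 the corresponding values were 27.3, 21.9 and 27.4 TPM against 19.8, 20.6 and 19.1 TPM, with −0.29 (adjusted p = 0.099). Both groups were separate from their controls in TPM, yet neither difference passed. In LN319 Luc TRA2B KO, *LRP1* rose by 0.58 (36.4 against 22.6 TPM, adjusted p = 0.000288), the opposite sign to *A2M*. In LN229 Luc TRA2B KO it gave 0.40 (adjusted p = 0.117), and 0.55 without control replicate 1 (adjusted p = 0.00823), the same sign as *A2M*. Of the 6 tested receptor and uptake genes, none was called in the TRA2B-OE TRA2A KO or Luc TRA2B KO comparison of either line. The shares of all genes called were 1.1% and 0.135% in LN229, and 0.233% and 3.92% in LN319. At an adjusted p of 0.05 alone, 2 of the 6 passed upward and 2 downward in LN319 Luc TRA2B KO. Of all genes, 18.5% passed upward and 24.2% downward there.

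Other secreted protease inhibitors were followed as a list of 30 genes, of which 17 were tested in each line. After TRA2B-OE TRA2A KO in LN229, 3 of the 17 were called lower, with a median of −0.21, where 1.1% of all genes were called in either direction. In LN319 none of the 17 was called, where 0.233% of all genes were. *SERPINA3*, the acute-phase inhibitor alpha-1-antichymotrypsin, was 556, 254 and 214 TPM in LN229 TRA2B-OE Control KO and 69.9, 68.8 and 57.6 TPM in the knockout. It fell by 2.28 (SE 0.412, adjusted p = 0.00953), and its level in each LN319 library was at most 0.1 TPM, so this inhibitor could not be followed there.

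*SERPINA5*, the protein C inhibitor, fell by 1.26 (adjusted p = 0.0262) and *SPINT1*, an inhibitor of hepatocyte growth factor activator, by 1.02 (adjusted p = 0.00904) in the same LN229 comparison. In LN229 Luc Control KO, *SERPINA3* was 913 TPM in replicate 1 and 296 and 263 TPM in the others, near the 862 to 1006 TPM of Luc TRA2B KO. The replicate that was high in *A2M* was therefore also high in *SERPINA3*.

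In LN319 Luc TRA2B KO, 2 inhibitors of the list were called lower and none higher, where 3.92% of all genes were called in either direction. *SLPI*, the secretory leukocyte inhibitor, was 14.2, 11.1 and 13.7 TPM against 42.4, 49.0 and 21.3 TPM and fell by 1.55 (adjusted p = 0.000174). *PI3*, elafin, was 1.03, 0 and 0.229 TPM against 1.43, 3.20 and 0.622 TPM; these groups overlapped, and its adjusted p of 0.0192 rested on low values. Of the proteases that A2M traps, 8 of 20 were tested in LN229 and 7 in LN319. None was called after TRA2B-OE TRA2A KO or Luc TRA2B KO. The shares of all genes called were 1.1% and 0.135% in LN229, and 0.233% and 3.92% in LN319.

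Among 13 growth factors and cytokines that the A2M protein is known to bind, 11 were tested in LN229 and 10 in LN319. Their median log2 difference after TRA2B-OE TRA2A KO was 0.50 in LN229 and 0.18 in LN319, against 0.01 and 0.02 over all genes. In these comparisons 1 was called higher in each line, where 1.1% of all genes were called in LN229 and 0.233% in LN319. In LN229 it was *IL6*, at 26.0, 24.3 and 29.0 TPM against 6.03, 8.58 and 9.38 TPM, which rose by 1.71 (adjusted p = 0.0189). In LN319 it was *CXCL8*, a neutrophil chemokine, at 2.35, 2.27 and 3.17 TPM against 0.863, 0.786 and 0.793 TPM, which rose by 1.60 (adjusted p = 0.0253). *IL6* in LN319 was 3.20 against 3.54 TPM and did not pass the test (adjusted p = 0.927).

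*IL6* was thus higher and *A2M* lower in LN229 TRA2B-OE TRA2A KO, and a link between them was not tested. The genes of IL-6 signalling were read as a list, and their RNA levels do not measure the signal. Of 21 such genes, 19 were tested in LN229 and 20 in LN319. After TRA2B-OE TRA2A KO *IL6* was the 1 call in LN229 and LN319 had none, beside 1.1% and 0.233% of all genes. *STAT3*, which carries the IL-6 signal to the nucleus, was 54.4 against 58.0 TPM in LN229 (adjusted p = 0.636) and 218 against 257 TPM in LN319 (adjusted p = 0.0707). In LN319 Luc TRA2B KO, *STAT3* fell by 0.31 (adjusted p = 0.00032). Most members of the list that passed an adjusted p of 0.05 there went the other way, with 7 upward and 3 downward. Of all genes, 18.5% passed upward and 24.2% downward. The median of the list was 0.21 in that comparison, against 0.02 over all genes. The receptor gene *CNTFR* was called higher there, at 1.93 against 0.669 TPM, where 3.92% of all genes were called.

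Of 19 acute-phase and STAT3 target genes, 10 were tested in LN229. After TRA2B-OE TRA2A KO 2 were called lower, *SERPINA3* and *FOS*, the AP-1 subunit, where 1.1% of all genes were called in either direction. *FOS* was 7.94, 4.21 and 3.74 TPM against 19.9, 15.2 and 10.2 TPM and fell by 1.55 (adjusted p = 0.0307). In LN229 Luc TRA2B KO it was 74.0, 74.5 and 69.3 TPM against 27.3, 10.8 and 10.2 TPM and rose by 2.28 (adjusted p = 0.0252), the 1 call of this list there, beside 0.135% of all genes. Without control replicate 1 that rise was 2.72 (adjusted p = 0.000974), but the call was lost on leaving out any other library of these 2 groups (adjusted p 0.0586 to 0.138), with no filter on low values (0.0587) and with only the groups compared (0.22). In LN319, 9 of the 19 were tested and none was called in either comparison, beside 0.233% and 3.92% of all genes. The difference between the lines was not tested.

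*SOCS3*, the STAT3-induced inhibitor of the same pathway, was also among the genes most like *A2M* over the libraries of both lines. That likeness was computed over the libraries compared here, so the p-values of *SOCS3* do not show separately that it moved with *A2M*. In LN319 it was 17.0, 16.7 and 15.2 TPM in TRA2B-OE Control KO and 10.5, 9.68 and 10.8 TPM in TRA2B-OE TRA2A KO. It fell by 0.59 (adjusted p = 0.0101), and the adjusted p reached 0.111 under another processing of the data. In LN229 it rose by 0.46 in Luc TRA2B KO (40.1 against 28.3 TPM, adjusted p = 0.0262), and by 0.53 without control replicate 1 (adjusted p = 0.00194). It no longer passed on leaving out any other library of these groups (0.0642 to 0.141), with no filter (0.0606) or with only the groups compared (0.22). In TRA2B-OE TRA2A KO the difference of −0.27 had an adjusted p of 0.0536. These differences were under a log2 difference of 1 and were not calls.

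Some glial markers were lower where *A2M* was lower in 1 comparison of LN229. After TRA2B-OE TRA2A KO, 2 of 10 tested markers were called lower, against 1.1% of genes called in either direction. They were *SOX2*, a stem-cell transcription factor, by 1.36 (25.2 against 63.5 TPM, adjusted p = 0.00079) and *PTPRZ1*, a receptor phosphatase of glia, by 1.51 (adjusted p = 0.0382). In LN229 Luc TRA2B KO none of the 10 was called, nor in LN229 Luc TRA2A KO, given as a description. Of all genes, 0.135% and 0.687% were called there. In LN319, 0 of 8 were called after TRA2B-OE TRA2A KO or Luc TRA2B KO, beside 0.233% and 3.92% of all genes. In LN319 Luc TRA2A KO, given as a description, 1 was called beside 1.86% of all genes. It was *SOX9*, at 17.5 against 36.6 TPM. The summed level of the 12 markers was 4151 to 4860 TPM over the LN229 libraries and 4675 to 5888 TPM over those of LN319. Epithelial markers were lower, as *A2M* was, in LN319 Luc TRA2B KO. There 5 of 6 tested passed an adjusted p of 0.05 downward and none upward, with a median of −0.54, against 24.2% and 18.5% of all genes. Of these, *KRT19*, a keratin, was called lower, at 3.60 against 8.61 TPM, and *KRT8* and *KRT18* fell by 0.48 and 0.53. *CDH1* gave −0.13 and did not pass. In LN319 TRA2B-OE TRA2A KO none of the 6 passed. In LN319 Luc TRA2A KO, given as a description, 1 of the 6 passed upward and 1 downward, with a median of −0.004. The part of these markers in the *A2M* result was not tested.

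Over the 15 libraries of each line, the 5 genes whose scaled log2 values were most like *A2M* in both lines were *THBS2*, *TMOD1*, *PRKD1*, *PIGS* and *SOCS3*, of 16425 genes tested in both. Likeness was the smaller of the 2 Pearson correlations with *A2M*; the libraries share their conditions, so the values are a description. The correlation was 0.94 in LN229 and 0.95 in LN319 for *THBS2*, a secreted matrix glycoprotein whose protein is also a ligand of LRP1. It was 0.91 and 0.92 for *SOCS3*, and the other 3 lay between 0.91 and 0.93 in each line.

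*THBS2* was 459, 342 and 283 TPM in LN229 TRA2B-OE Control KO and 196, 169 and 136 TPM in TRA2B-OE TRA2A KO. In LN319 it was 25.4, 19.7 and 24.9 TPM and 10.7, 9.66 and 14 TPM in the same groups. *THBS2* was lower in every TRA2B-OE TRA2A KO library than in its controls, in both lines, and at a level many times higher in LN229. Its choice by likeness to *A2M* over these same libraries favoured this. In LN229 Luc TRA2B KO its mean was 449 TPM, against 358 TPM in Luc Control KO. In LN229 Luc Control KO it was 496 TPM in replicate 1 and 278 and 300 TPM in the others, so the replicate that was high in *A2M* was high here too.

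The 5 genes most opposite to *A2M* were *XPOT*, *PUS1*, *SLC1A5*, *EPB41L4B* and *NOCT*. *XPOT*, the export receptor of tRNA, had correlations of −0.93 in LN229 and −0.95 in LN319. Its mean was 113 TPM in LN229 TRA2B-OE TRA2A KO and 97.5 TPM in the control, and in LN319 51.8 and 45.7 TPM. *SLC1A5*, a glutamine transporter, was 215 against 156 TPM in LN229 and 111 against 92.6 TPM in LN319. These changes were much smaller in fold than that of *A2M*.

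**Figure D4:**
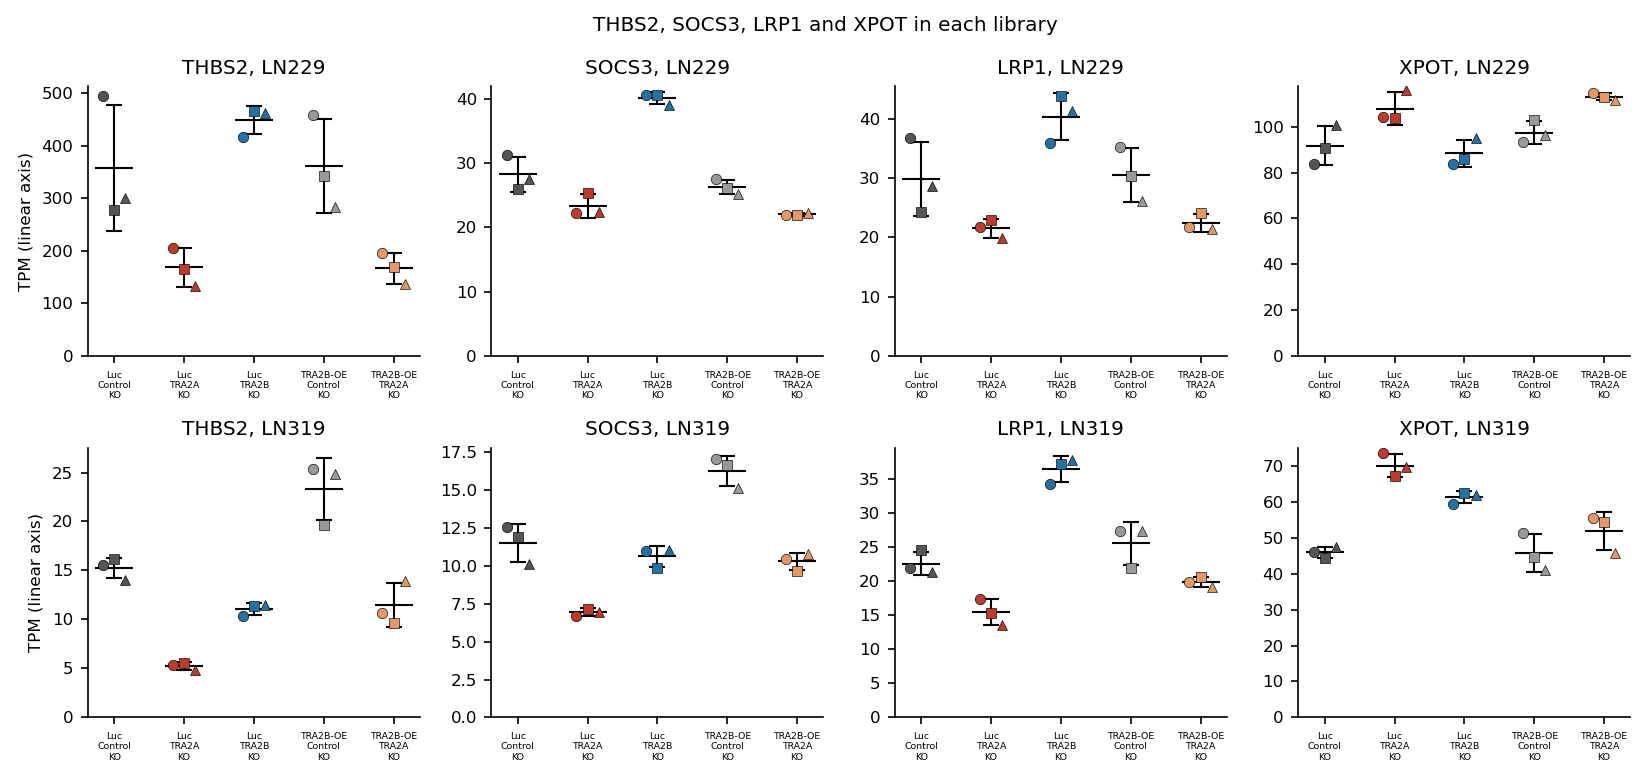
*THBS2*, *SOCS3*, *LRP1* and *XPOT* in TPM on linear axes from 0, in LN229 (top) and LN319 (bottom), with symbols and bars as for *A2M*. *THBS2* was 136 to 196 TPM in LN229 TRA2B-OE TRA2A KO against 283 to 459 TPM in its control, and *LRP1* in LN319 was highest in Luc TRA2B KO, at a mean of 36.4 TPM, where *A2M* was low.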

How the data were processed

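The authors quantified poly(A) RNA-seq with kallisto 0.48.0 against Gencode transcripts on GRCh38, and deposited TPM per gene and library in 1 table per line; the submitters' processing notes also name STAR 2.7.3. Columns were assigned to libraries by their names. From the TPM, a gene was kept if 4 or more libraries of its line held 1 TPM or more. Libraries were scaled by a TMM factor without weights (30% of ratios and 5% of abundances trimmed), and values became log2(TPM + 0.1), which understates changes of low genes. limma 3.58.1 (R 4.3.3) fitted all conditions of a line together, with a trended empirical Bayes prior and Benjamini-Hochberg adjustment over all genes; a gene was called where the adjusted p was below 0.05 and the log2 difference exceeded 1 in size. The script was tested on simulated data.

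*A2M* and the gene lists were chosen with earlier results of these data known. Named genes were *A2M*, *TRA2A*, *TRA2B*, the family and neighbours, the called members of each list (at most 4 per list and line), and the 5 genes most like and most opposite to *A2M*; *LRP1*, *STAT3*, *CDH1*, and *IL6* and *SOCS3* where they were not called were named after their values were seen. A called list member is not reported here. Coordinates and sequences of *A2M* are from Gencode v44 and GRCh38, and guides from the study's guide list. Alternatives were other pseudocounts, filters and scalings, a fit of the compared groups alone, a replicate block, and leaving out each library.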

Additional observations from a re-analysis of the deposited data

Results flagged for a closer look

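The *A2M* difference after *TRA2B* knockout in the Luc background had opposite signs in the glioma lines, 0.75 on the log2 scale in LN229 and −1.48 in LN319. In TPM as deposited, every knockout library was above every control library in LN229 and below every control library in LN319. The difference between the lines was not tested. In LN229 the separation from control replicate 1 was narrow, 176 against 175 TPM, and on the scaled values of the fit the groups overlapped, with the lowest knockout library at 169 and control replicate 1 at 178.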

How the results depend on the processing

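Over 6 tested *A2M* differences, 77 of 84 values under the alternatives kept their direction and their side of the threshold, and none reversed. For the 4 given with no test, all 68 values kept their direction and moved by less than 1 SD. This SD was the largest within-group SD of log2 *A2M* among the groups compared. In LN229 it was widened by Luc Control KO replicate 1. Leaving out 1 library there gave −0.68 to −0.08 for the response in TRA2B-OE minus that in Luc. In LN229 Luc TRA2B KO, leaving out 1 library gave log2 differences from 0.52 to 1.11, the highest, without Luc Control KO replicate 1, now passing. In LN319 TRA2B-OE Control KO against Luc Control KO, the difference was 0.82 (adjusted p = 0.0767) with no filter on low values and 0.84 (0.154) with only the groups compared, both no longer passing, and leaving out 1 library gave 0.62 to 0.99. In LN319 TRA2B-OE TRA2A KO, only the groups compared gave −1.27 (adjusted p = 0.127). The cause was not tested.

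Of 22 results on other genes of the lists, computed under the same alternatives after seeing the data, 241 of 302 values stayed on their side; 51 no longer passed, 10 newly passed and none reversed. *SERPINA3* and *SOX2* in LN229 TRA2B-OE TRA2A KO passed throughout, whereas *FOS*, *IL6*, *SERPINA5*, *PTPRZ1* and *SPINT1* did not. Their adjusted p went up to 0.102, 0.0695, 0.0836, 0.127 and 0.0792. In LN319, that of *CXCL8* in TRA2B-OE TRA2A KO went up to 0.111, and that of *PI3* in Luc TRA2B KO up to 0.104.

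The number of genes called moved by over 1.5 times in 47 of 112 alternatives. It was 127 (1 to 266) in LN229 Luc TRA2A KO, 25 (0 to 695) in Luc TRA2B KO, 55 (2 to 73) in TRA2B-OE Control KO and 203 (61 to 311) in TRA2B-OE TRA2A KO. In LN319 it was 359 (161 to 384), 757 (331 to 963), 134 (33 to 225) and 45 (1 to 64) in the same order.

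Same-numbered libraries did not pair by the correlation of their deviations, which was not above 0.1 for every number in any comparison. With a replicate block, the *A2M* difference was 0.75 (adjusted p = 0.0785) in LN229 Luc TRA2B KO, −0.49 (0.34) in LN229 TRA2B-OE Control KO, −2.05 (0.000965) in LN229 TRA2B-OE TRA2A KO, −1.48 (9.62e-05) in LN319 Luc TRA2B KO, 0.84 (0.0202) in LN319 TRA2B-OE Control KO and −1.27 (0.0107) in LN319 TRA2B-OE TRA2A KO, and no *A2M* call changed. TPM gives no depth, so limits of detection for *A2M* in A549 and NCI-H23 are unknown.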
